A study of Mus musculus with 12 samples.

Results

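A set of 9 genes of double-stranded RNA sensing and interferon signalling were followed in mouse morulae, because small interfering RNA (siRNA), which is itself double-stranded, had been injected into some of the embryos and not into others. The members were the sensors Ifih1, Ddx58 (now Rigi), Tlr3 and Eif2ak2, the adaptor Mavs, the transcription factors Irf3 and Irf7, and the interferon-stimulated genes Isg15 and Ifit1. They were chosen by name, and every probe whose RefSeq symbol was one of these was read, which gave 14 of the 41174 probes on the array. A symbol was matched for 18327 genes in all. The study measured 12 whole morulae, each on an array of its own. All embryos were of the strain (C57BL/6 x DBA/2) F1 and were grown in KSOM for 72 h. The 4 IVF embryos came from in vitro fertilisation and were not treated, with 2 males (IVF 1 and IVF 3) and 2 females (IVF 2 and IVF 4). The other 8 embryos were male clones, made by transfer of the nucleus of a Sertoli cell, the supporting cell of the testis. Of the clones, 4 received a control siRNA (siCont) and 4 an siRNA against Xist (siXist), between 6 and 7 h after activation, at the pronuclear stage. Every injected embryo was therefore a clone and every embryo without an injection was fertilised, so injection and cloning cannot be told apart.

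The pathway works in steps. MDA5, made from Ifih1, and RIG-I, made from Ddx58, bind double-stranded RNA in the cytoplasm and signal through MAVS on mitochondria, while TLR3 binds it in endosomes and signals through TRIF. Both routes lead to phosphorylation of IRF3 and IRF7, which switch on type I interferons, and secreted interferon then acts through its receptor and the JAK-STAT cascade to raise a large set of interferon-stimulated genes, the sensors and Irf7 among them. PKR, made from Eif2ak2, halts translation when it binds double-stranded RNA. Early mouse embryos and embryonic stem cells are known for a weak interferon response to long double-stranded RNA.

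The promoters of Isg15 and Ifit1 are shown because these genes stand for the output of the pathway, and because they were the only members with the searched motif. The motif was GAAA followed, after any 2 bases, by another GAAA, the core of the element that interferon regulatory factors bind, read on both strands in the 250 bases before each gene's start. It was present in 978 of 32851 windows (2.98%) and in 2 of the 9 members. The sequences are RefSeq's for GRCm38.p6, cover the 120 bases up to the start, run in the direction of the gene, and have the matches in capitals. In Isg15 (chr4:156200819-156200938, minus strand) 3 overlapping matches began between 78 and 66 bases before the start. In Ifit1 (chr19:34640769-34640888, plus strand) 2 matches lay on the opposite strand and began, as printed, 104 and 85 bases before the start.
Isg15: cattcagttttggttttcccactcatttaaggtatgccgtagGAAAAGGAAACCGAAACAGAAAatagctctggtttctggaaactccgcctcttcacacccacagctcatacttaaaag
Ifit1: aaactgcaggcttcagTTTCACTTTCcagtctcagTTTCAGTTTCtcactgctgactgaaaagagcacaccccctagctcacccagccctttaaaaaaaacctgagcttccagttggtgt

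Levels are the log2 signal of a probe relative to the 75th percentile of its array, so a level belongs to a probe and is compared between embryos and not between genes. The array software marks whether a spot is well above its background, and a level without that mark says only that the probe was dim. On an array between 50.8% and 61.4% of all probes had the mark, and the 75th percentile lay between 507 and 1133 intensity units. Each class was hybridised on its own slide and scanned separately, so the slide cannot be told apart from the class anywhere below. Xist, the target of the siRNA, had a level of 4.97 ± 0.48 (SD, n = 4) after the control siRNA and of 1.93 ± 0.48 (n = 4) after the siRNA against Xist. Of 12 morula marker probes 9 were above background on every array, and the summed signal of the 12, in units of the 75th percentile, was 334 to 365 in IVF, 163 to 341 in siCont and 187 to 299 in siXist embryos. The exceptions were Sox2, Cdx2 and a Sall4 probe, and Sox2 was dim in most clones. Of 11 tested morula genes 0 were called. At an unadjusted p under 0.05 (limma), 4 were lower and 0 higher in siCont, and 1 lower and 0 higher in siXist, against IVF embryos. Of all features 13.6% and 13.9% were under it. In whole embryos, fewer cells of a type and less RNA per cell cannot be told apart. The number of arrays, 4 a class, limits the precision.

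Most member probes were dim in most of these morulae. Of the 14 probes 5 were above background on no array and 2, those of Mavs and Irf3, on all 12. The number of member probes above background per embryo was 4, 4, 4 and 6 in IVF embryos 1 to 4, 3, 7, 5 and 3 in siCont clones 1 to 4, and 4, 3, 4 and 7 in siXist clones 1 to 4. The classes overlapped throughout, and in each class a single embryo had the most. Across all 12 embryos Isg15 was above background in 10, Ifit1 in 6, Ifih1 in 5, Ddx58 in 4 by one or another probe, Tlr3 in 2, Eif2ak2 in 1 and Irf7 in none.

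**Figure D1:**
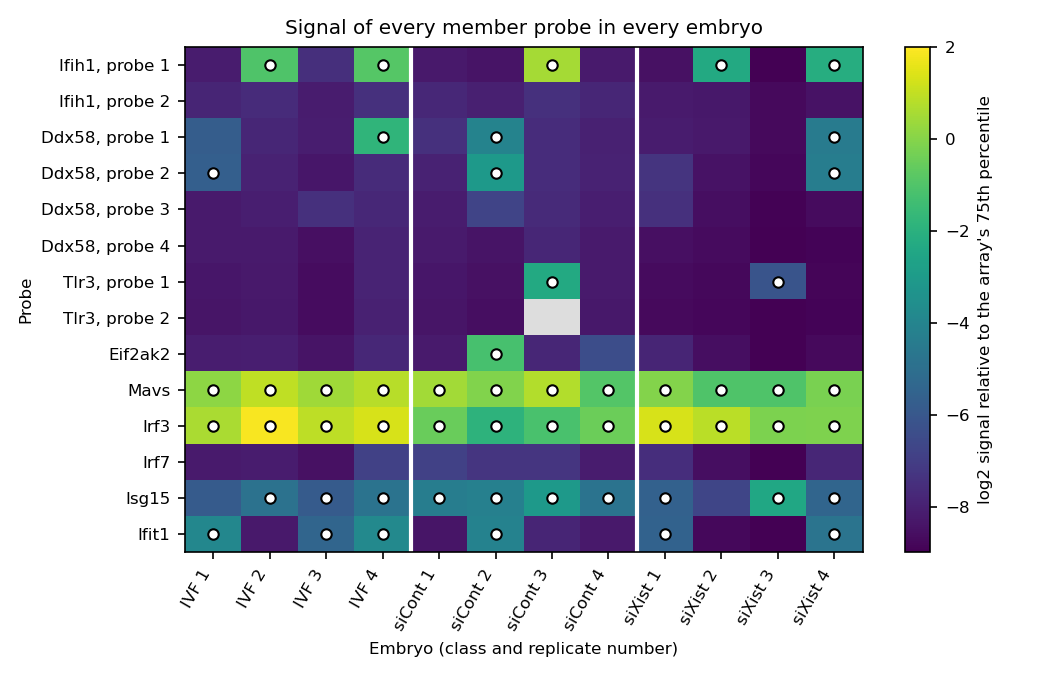
Each row is one of the 14 probes and each column one of the 12 embryos. Colour is the log2 signal relative to the 75th percentile of the array, a white dot marks a spot well above background, and the grey cell is a spot left out as an outlier. Mavs and Irf3 carry a dot in all 12 embryos, Irf7 in none, and the dots of the sensors are scattered over embryos of every class.

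The cytoplasmic sensors were above background in some embryos of each class and dim in the rest. For Ifih1, which encodes MDA5, the level in IVF embryos was -1.01 in IVF 2 and -0.88 in IVF 4, both above background, and -8.18 in IVF 1 and -7.52 in IVF 3, both dim. Those were the female and the male embryos respectively. Among siCont clones it reached 0.50 in clone 3 and was dim in the other three, at -8.25, -8.44 and -8.21 in clones 1, 2 and 4. Among siXist clones it was -2.31 in clone 2 and -2.16 in clone 4, and dim at -8.52 and -8.99 in clones 1 and 3. Of the 8 male clones 3 were above background, and the part of sex in these values was not tested. The second Ifih1 probe was dim in all 12 embryos.

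Ddx58, which encodes RIG-I, had 4 probes, of which 2 were dim everywhere. The brightest was above background at -1.82 in IVF 4, -4.07 in siCont clone 2 and -4.40 in siXist clone 4, and dim between -8.72 and -5.76 in the other 9 embryos. A second probe was above background in siCont clone 2 (-3.06) and siXist clone 4 (-4.33) as well, but not in IVF 4 (-7.65), and it was above background at -5.68 in IVF 1. Both probes therefore marked the same 2 clones and disagreed among IVF embryos. Each class had 1 embryo above background by either probe taken alone.

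Tlr3, the endosomal sensor, was dim in the 4 IVF embryos, between -8.61 and -7.90. It was at -2.32 in siCont clone 3 and -6.14 in siXist clone 3, both above background, and between -8.86 and -8.22 in the other 6 clones. The second Tlr3 probe was dim in all embryos measured, with the spot of siCont clone 3 left out as an outlier. Eif2ak2, which encodes PKR, was above background in siCont clone 2 alone, at -1.22. The other 11 embryos lay between -8.97 and -6.38 without the mark. Signal above background for these 2 sensors was thus seen in clones and in no IVF embryo, in 1 or 2 of 8 clones each, so most clones were as dim as the IVF embryos.

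A gene was tested if 3 or more of the 4 embryos of some class had it above background, and none of the 4 sensors reached this. With the filter dropped, their adjusted p lay between 0.269 and 0.956 over the 3 comparisons (limma). Eif2ak2 in siXist against siCont clones had the lowest of these, with a difference of -2.63 ± 1.29 (SE), and the siCont mean there rested on 1 embryo of 4.

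Mavs and Irf3 were measured in every embryo. The Mavs probe (A_51_P170207, a gene of chromosome 2) read 0.11, 0.96, 0.43 and 0.83 in IVF embryos 1 to 4. In siCont clones 1 to 4 it read 0.48, -0.08, 0.72 and -0.96, and in siXist clones 1 to 4 -0.03, -1.03, -1.02 and -0.22. All siXist clones were below all IVF embryos, and the siCont clones overlapped both. The means were 0.58 ± 0.39 (SD, n = 4), 0.04 ± 0.75 (n = 4) and -0.57 ± 0.52 (n = 4). The siXist clones differed from IVF embryos by -1.16 ± 0.42 (SE), or 2.23-fold lower, which did not pass the test over all features (limma, adjusted p = 0.267). The siCont clones differed from IVF embryos by -0.54 ± 0.42 (adjusted p = 0.608), a value of -0.21 without siCont clone 4, -0.23 against male IVF embryos and -1.64 in the authors' table. The siXist clones differed from siCont clones by -0.61 ± 0.42 (adjusted p = 0.515), a direction that turned in the authors' table (0.52). The median of all features in that table was itself -1.13 in siCont minus IVF and 0.93 in siXist minus siCont.

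Irf3, the factor that MAVS and TRIF signalling activate, showed the widest gap between classes among the members measured in every embryo. Its probe (A_51_P485499, a gene of chromosome 7) read 0.59, 1.88, 0.92 and 1.33 in IVF embryos 1 to 4. In siCont clones 1 to 4 it read -0.53, -1.89, -1.17 and -0.48, and in siXist clones 1 to 4 1.31, 0.85, -0.17 and -0.11. Every siCont clone was below every IVF embryo and below every siXist clone, and the siXist clones overlapped the IVF embryos. The means were 1.18 ± 0.56 (SD, n = 4) in IVF, -1.02 ± 0.66 (n = 4) in siCont and 0.47 ± 0.73 (n = 4) in siXist embryos.

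The siCont clones differed from IVF embryos in Irf3 by -2.19 ± 0.45 (SE; 95% interval -3.21 to -1.18), or 4.57-fold lower. The unadjusted p was 0.0007 and the adjusted p 0.0843 (limma), so the difference did not pass the threshold of 0.05 over the 19047 features tested. It kept its direction in all 24 alternative analyses, between -3.29 and -1.77, and passed the threshold in none of them (adjusted p between 0.0647 and 0.392). Since the clones are male, the value against the 2 male IVF embryos alone is also given, and it was -1.77 ± 0.56. The siXist clones differed from siCont clones by 1.49 ± 0.45, or 2.80-fold higher (adjusted p = 0.296). Against IVF embryos the siXist clones differed by -0.71 ± 0.45 (95% interval -1.72 to 0.31; adjusted p = 0.512). The comparisons with siCont clones share the same 4 arrays, so they are not separate evidence.

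Irf7, which amplifies the interferon response once interferon has been made, was dim in all 12 embryos. Its levels were between -8.49 and -6.89 in IVF, -8.15 and -6.86 in siCont and -9.02 and -7.54 in siXist embryos. No difference can be read from values without the background mark.

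**Figure D2:**
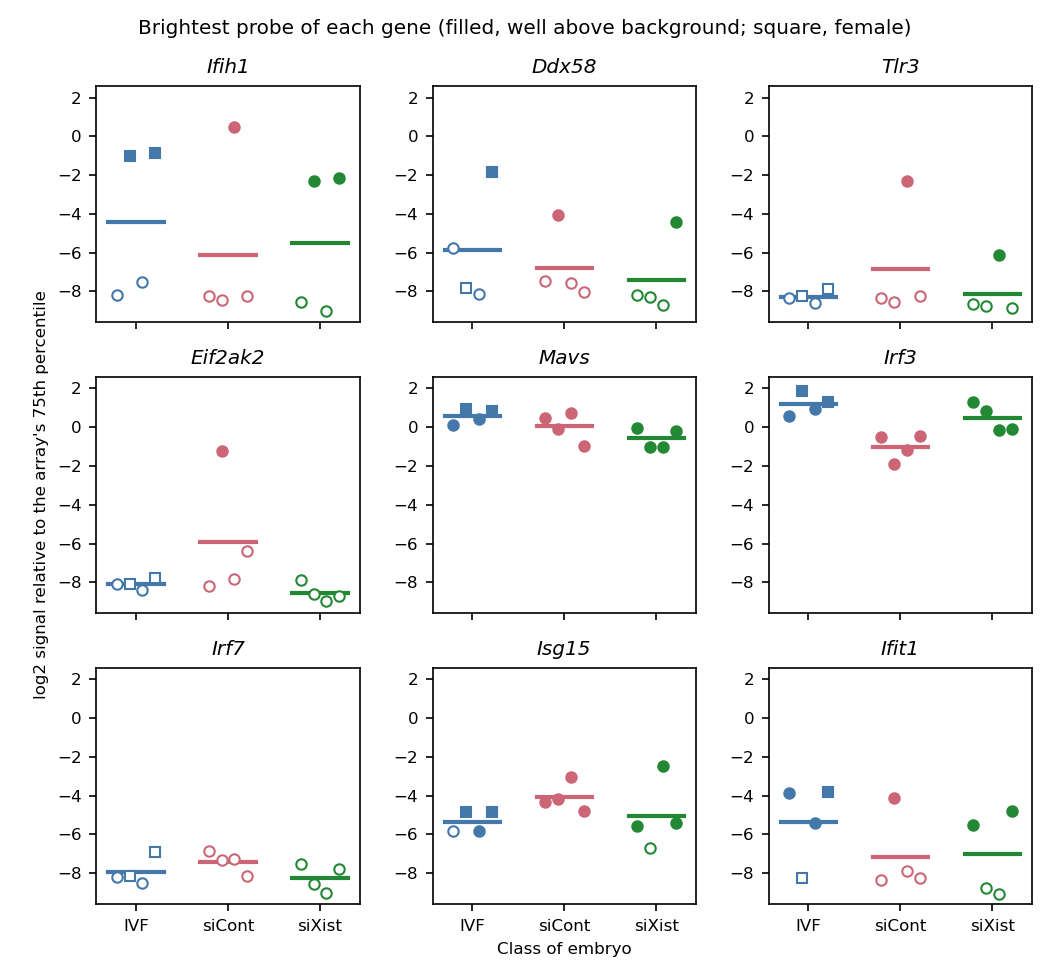
Each panel plots the brightest probe of a member, with the log2 signal relative to the 75th percentile of the array on the vertical axis, the 3 classes on the horizontal axis, and a line at the class mean (n = 4). Points are embryos, filled where well above background, and squares are the 2 female embryos. The siCont points of Irf3 lie between -1.89 and -0.48, below the IVF and siXist points, while the sensors split into filled and open points within classes.

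Isg15, a ubiquitin-like protein that is attached to other proteins after interferon, was the most widely detected of the stimulated members, in 10 of 12 embryos. Its probe (A_52_P463936) read -5.84, -4.87, -5.84 and -4.83 in IVF embryos 1 to 4, with IVF 1 not above background. In siCont clones 1 to 4 it read -4.35, -4.20, -3.05 and -4.79. In siXist clones 1 to 4 it read -5.58, -6.71, -2.46 and -5.42, with clone 2 not above background. All siCont clones were above all IVF embryos, though siCont clone 4 (-4.79) and IVF 4 (-4.83) were close, and the highest embryo of all was siXist clone 3.

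The Isg15 means were -5.34 ± 0.57 (SD, n = 4), -4.10 ± 0.75 (n = 4) and -5.04 ± 1.8 (n = 4). The siCont clones differed from IVF embryos by 1.24 ± 0.79 (SE), or 2.37-fold higher (95% interval -0.52 to 3.01; limma, adjusted p = 0.523), but by 0.54 after normexp and quantile normalisation and 0.15 in the authors' table. The siXist clones differed from IVF embryos by 0.30 ± 0.79 (adjusted p = 0.886), and without siXist clone 3 the value was -0.56. The siXist clones differed from siCont clones by -0.95 ± 0.79 (adjusted p = 0.590), which turned to 0.19 in the authors' table. In that table the median of all features was itself -1.13 in siCont minus IVF and 0.93 in siXist minus siCont. The main fit had medians of -0.04 and -0.21. The Isg15 promoter holds the 3 overlapping motif matches printed above.

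Ifit1, which binds viral RNA ends and blocks their translation, was above background in 3 IVF embryos, 1 siCont clone and 2 siXist clones. It read -3.89, -8.25, -5.40 and -3.83 in IVF embryos 1 to 4, with IVF 2 dim. In siCont clones 1 to 4 it read -8.36, -4.14, -7.88 and -8.24, with only clone 2 above background, and in siXist clones 1 to 4 -5.53, -8.77, -9.06 and -4.78, with clones 2 and 3 dim. The classes overlapped over nearly the whole range. The siCont clones differed from IVF embryos by -1.81 ± 1.39 (SE; 95% interval -4.91 to 1.28; limma, adjusted p = 0.601) and the siXist clones by -1.69 ± 1.39 (adjusted p = 0.599). Ifit1 passed the filter through the IVF embryos alone, and single IVF embryos moved these values. Without IVF 4 they were -0.71 and -0.59, without IVF 2 they were -2.92 and -2.80, and after normexp and quantile normalisation they were -0.36 and -0.31. Without siCont clone 2 the former was -2.82, in the authors' table it was -2.91, and without siXist clone 2 or 3 the latter was -1.12 or -1.02. For all features the authors' table had a median of -1.13 in siCont against IVF embryos. The siXist clones differed from siCont clones by 0.12 ± 1.39 (adjusted p = 0.976), and the sign of that value turned in 6 of 23 alternatives.

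The siCont clone 2, which alone had Eif2ak2 above background, was also the siCont clone with Ddx58 and Ifit1, and siXist clone 4 and the female IVF 4 had Ifih1, Ddx58 and Ifit1 together. In siCont clone 3, by contrast, Ifih1 and Tlr3 were above background without Ddx58 or Ifit1. These sets were noted after the values were seen and carry no test.

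Of the 9 members, 4 passed the filter and were tested, and none of these passed the threshold in any comparison. Over all 19047 features, limma called 0.415% in siCont against IVF embryos, 0.578% in siXist against IVF embryos and 0.0105% in siXist against siCont clones. At an unadjusted p under 0.05 there was 1 member in each comparison, namely Irf3, Mavs and Irf3. The classes did not overlap for 2 members in siCont against IVF embryos (Irf3 and Isg15), where 10.3% of all features did not. The counts were 1 member (Mavs) against 13.1% of features in siXist against IVF embryos and 1 member (Irf3) against 8.04% in siXist against siCont clones. The 4 tested members had passed a filter on brightness, so they do not stand for all 9.

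**Figure D3:**
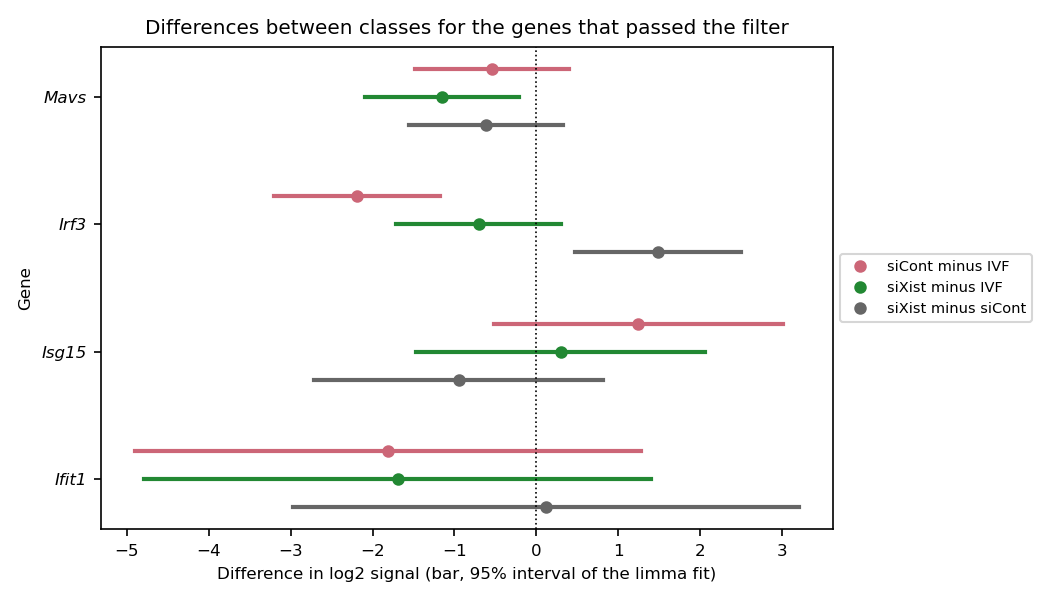
The difference in log2 signal (horizontal axis) of the 4 tested members in the 3 comparisons, as points with 95% intervals from the limma fit. The interval of Irf3 in siCont minus IVF runs from -3.21 to -1.18 and that of Ifit1 from -4.91 to 1.28, and no member passed the threshold after adjustment.

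The rest of the pathway was read from 8 lists with 152 further genes, of which 132 had a named probe and 101 were tested. In siCont against IVF embryos 0 of the 101 passed the threshold (26 at an unadjusted p under 0.05, or 25.7%, against 13.6% of all features). In siXist against IVF embryos 1 passed, Oas1a, which was lower (20 at an unadjusted p under 0.05, or 19.8%, against 13.9%). In siXist against siCont clones 0 passed (10, or 9.9%, against 13.9%). The median difference of these genes was 0.60, 0.01 and -0.51 in the 3 comparisons, beside -0.04, -0.23 and -0.21 for all features.

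Oas1a encodes an oligoadenylate synthetase, an enzyme that binds double-stranded RNA and makes the messenger that activates RNase L. It read -1.88, -0.77, -0.43 and -3.31 in IVF embryos 1 to 4, all above background. In siCont clones 1 to 4 it read -4.11, -6.19, -7.76 and -5.14, with clones 2 and 3 dim, and in siXist clones it was dim in all 4, between -8.70 and -7.43. Every clone was below every IVF embryo, and the siCont and siXist clones overlapped. Of all features 10.3% did not overlap between siCont and IVF embryos, and 13.1% between siXist and IVF embryos. Oas1a passed the filter through the IVF embryos alone, the class where it was highest. The siXist clones differed from IVF embryos by -6.71 ± 0.82 (SE; limma, adjusted p = 0.0107), or by -2.32 after normexp and quantile normalisation. The difference passed the threshold in 23 of 24 alternatives, the exception being a block for the replicate number (adjusted p = 0.0525). With dim values raised to the lowest signal marked as above background on the array, the siXist clones were 75.5-fold below IVF embryos. That fold is not a lower bound, since a dim spot can lie above this lowest signal. On the siXist arrays the lowest marked signal was between -8.21 and -7.83, and the highest dim Oas1a value was -7.43. In siCont clones the difference from IVF embryos was -4.20 ± 0.82 (adjusted p = 0.0719).

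The other sensor genes had 1 of 19 tested members called in siXist against IVF embryos (Oas1a) and 0 in the other comparisons. Oas1d, a relative of Oas1a that is made in oocytes, had levels of 2.17 ± 0.51 (SD, n = 4) in IVF, 0.59 ± 0.70 (n = 4) in siCont and 0.23 ± 0.64 (n = 4) in siXist embryos. Its difference from IVF embryos was -1.58 ± 0.47 (SE; limma, adjusted p = 0.209) in siCont and -1.94 ± 0.47 (adjusted p = 0.12) in siXist clones. Oas1h was, by its brightest probe, above background in 1 IVF embryo, 3 siCont clones and no siXist clone. It passed the filter through the siCont clones alone, and siXist clones differed from siCont clones by -3.44 ± 1.05 (adjusted p = 0.296). Oas1 genes are related in sequence, so a probe may read more than the gene it is named for. How far it did was not tested.

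Among signal transducers, 0 of 21 tested genes were called in any comparison, with 5, 5 and 1 at an unadjusted p under 0.05 in the order given above. Cgas, the cytosolic DNA sensor, differed by 1.90 ± 0.58 (SE) in siCont against IVF embryos (limma, adjusted p = 0.218). Nlrx1, a mitochondrial protein that restrains MAVS, differed from IVF embryos by 1.15 ± 0.44 (adjusted p = 0.301) in siCont and 1.21 ± 0.44 (adjusted p = 0.266) in siXist clones. Chuk, a kinase of the NF-kappa-B branch, differed by 1.27 ± 0.36 in siXist against IVF embryos (adjusted p = 0.167). In siXist against siCont clones Tank, a scaffold of the kinase TBK1, differed by -2.15 ± 0.72 (adjusted p = 0.298) and Ikbkb, another NF-kappa-B kinase, by 2.13 ± 1.02 (adjusted p = 0.384). Ikbkb was above background in every siXist clone but dim in most siCont clones and some IVF embryos. It passed the filter through the siXist clones alone, the higher class of that comparison. The kinase that phosphorylates IRF3, Tbk1, and the TLR3 adaptor Ticam1 were above background in all 12 embryos.

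Interferon regulatory factors other than Irf3 were split. Irf1, which drives genes downstream of interferon gamma, was by its brightest probe dim in the 4 IVF embryos, between -8.53 and -7.90. In siCont clones 2, 3 and 4 it was above background at 3.55, 0.33 and 0.31 and in siCont clone 1 dim at -8.20. In siXist clones it was 2.19 in clone 3 and dim in the other 3. That probe passed the filter through the siCont clones alone. The siCont clones differed from IVF embryos by 7.20 ± 2.88 (SE) as measured, which did not pass the threshold (limma, adjusted p = 0.314), and the dim siCont clone 1 lay with the IVF embryos. The second Irf1 probe did not follow it and was above background in 3 IVF embryos, 1 siCont clone and 1 siXist clone. Irf5 differed by -2.06 ± 0.96 in siXist against IVF embryos (adjusted p = 0.375) and Irf8 by -1.61 ± 0.53 in siXist against siCont clones (adjusted p = 0.296). Of the 6 tested members of this list 0 were called in any comparison.

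The interferons themselves gave no call among 7 tested genes in any comparison. Ifnb1, the interferon that IRF3 induces first, was dim in all 12 embryos, between -8.77 and -7.54, and so was Ifna4, between -8.68 and -7.73. Probes of Ifna2, Ifna5, Ifna9, Ifna12, Ifna13 and Ifnz were above background in all 12 embryos. The alpha genes are near-identical copies, so these values may be shared between them. Ifna5, with levels from -5.33 to -3.39 over the 12 embryos, differed by 0.79 ± 0.33 (SE) in siCont against IVF embryos (limma, adjusted p = 0.337) and by -0.88 ± 0.33 in siXist against siCont clones (adjusted p = 0.316). Ifna9 differed by -0.66 ± 0.34 in siXist against siCont clones (adjusted p = 0.41). Ifnz differed from IVF embryos by -0.70 ± 0.36 (adjusted p = 0.422) in siCont and -0.47 ± 0.36 (adjusted p = 0.569) in siXist clones. Ifng, the type II interferon, was above background in 3 IVF embryos, 3 siCont clones and 1 siXist clone. It passed the filter through the IVF embryos and siCont clones, and differed by -5.46 ± 2.92 in siXist against IVF embryos (adjusted p = 0.433).

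**Figure D4:**
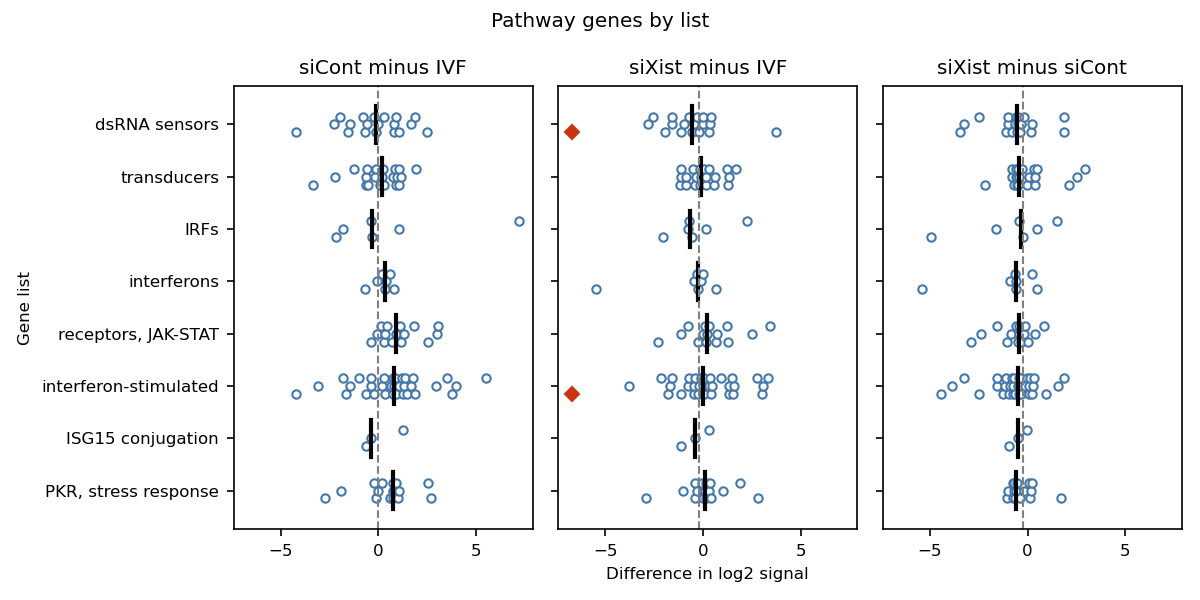
Circles are tested genes of each list, members included, with their difference in log2 signal (horizontal axis) in each comparison, and the red diamond is the gene past the threshold, Oas1a, which is on 2 lists. Black bars are list medians and the dashed line is the median of all features (-0.04, -0.23 and -0.21), so the interferon-stimulated list has its bar at 0.79 in siCont minus IVF and at 0.02 in siXist minus IVF.

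Receptor and JAK-STAT genes had a median difference of 0.91 in siCont and 0.21 in siXist clones against IVF embryos, with 0 of 15 tested genes called in any comparison. Socs3, a feedback inhibitor of JAK signalling, read 4.66, 3.43, 2.41 and 4.52 in IVF embryos 1 to 4. It read 7.14, 5.58, 7.73 and 6.60 in siCont clones 1 to 4 and 7.03, 6.44, 5.14 and 6.40 in siXist clones 1 to 4. All clones were above all IVF embryos. Of all features 10.3% did not overlap between siCont and IVF embryos, and 13.1% between siXist and IVF embryos. Socs3 was named for its small p in its list. The difference from IVF embryos was 3.01 ± 0.65 (SE; limma, adjusted p = 0.0961) in siCont and 2.50 ± 0.65 (adjusted p = 0.143) in siXist clones, and the siCont value passed the threshold after normexp and quantile normalisation (adjusted p = 0.0439). Jak2 differed by 1.83 ± 0.42 (adjusted p = 0.121) in siCont and 1.22 ± 0.42 (adjusted p = 0.248) in siXist clones against IVF embryos, with 1 IVF spot left out as an outlier. In siXist against siCont clones Pias1, an inhibitor of STAT proteins, differed by -2.40 ± 1.02 (adjusted p = 0.343) and Jak1 by -1.05 ± 0.53 (adjusted p = 0.402). Ifnar1, a chain of the type I interferon receptor, was above background in all 12 embryos.

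Interferon-stimulated genes, the usual readout of a response, had 0 of 33 tested genes (Isg15 and Ifit1 included) called in siCont against IVF embryos, 1 in siXist against IVF embryos (Oas1a, lower) and 0 in siXist against siCont clones. The difference was above 0 for 23 of 33 in siCont and 18 of 33 in siXist clones against IVF embryos, and for 9 of 33 in siXist against siCont clones. Ifi27, a mitochondrial protein of this class, read 1.53, -1.11, -1.16 and -0.20 in IVF embryos 1 to 4. It read 3.06, 3.65, 4.86 and 2.43 in siCont clones 1 to 4 and 4.33, 1.82, 3.75 and 2.43 in siXist clones 1 to 4, so that all clones were above all IVF embryos. Of all features 10.3% did not overlap between siCont and IVF embryos, and 13.1% between siXist and IVF embryos. Ifi27 was named for its small p in its list. Its difference was 3.74 ± 0.78 (SE; limma, adjusted p = 0.0863) in siCont and 3.32 ± 0.78 (adjusted p = 0.112) in siXist clones. Parp9, a member of the PARP family, differed by -4.44 ± 1.02 in siXist against siCont clones (adjusted p = 0.257). The classical responders Ifit2 and Ifit3 were dim in all 12 embryos by every probe, and Rsad2 was above background in 2 IVF embryos, 1 siCont clone and 1 siXist clone by its brightest probe. Cxcl10, a chemokine, was above background in 3 IVF embryos and all 8 clones, and differed by 3.50 ± 1.34 (adjusted p = 0.299) in siCont and 2.75 ± 1.34 (adjusted p = 0.394) in siXist clones against IVF embryos. Isg20, an RNA exonuclease, was above background in 1 IVF embryo, 3 siCont clones and 4 siXist clones by its brightest probe. It passed the filter through the clones alone, and differed by 3.95 ± 1.50 (adjusted p = 0.295) and 3.07 ± 1.50 (adjusted p = 0.396). Psmb9 was above background in all 12 embryos and went the other way, at -3.09 ± 0.85 (adjusted p = 0.177) and -2.16 ± 0.85 (adjusted p = 0.3). Pml also did, at -1.02 ± 0.43 (adjusted p = 0.345) and -0.74 ± 0.43 (adjusted p = 0.476). At an unadjusted p under 0.05 (limma), 6 of the 33 were higher and 3 lower in siCont against IVF embryos. In siXist against IVF embryos 2 were higher and 3 lower, and in siXist against siCont clones 0 were higher and 4 lower.

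In the ISG15 conjugation list 0 of 3 tested genes were called in any comparison. Trim25, a ligase for RIG-I and ISG15, differed from IVF embryos by -0.62 ± 0.52 (SE; limma, adjusted p = 0.641) in siCont and -1.11 ± 0.52 (adjusted p = 0.38) in siXist clones, and between the clones by -0.49 ± 0.52 (adjusted p = 0.669). Ube2l6, the carrier enzyme for ISG15, differed by -0.41 ± 0.44 in siXist against IVF embryos (adjusted p = 0.692). Of the PKR and stress response list 0 of 16 tested genes were called in any comparison. Eif2ak4, the PKR relative that senses amino acid shortage, differed from IVF embryos by -1.90 ± 0.59 (adjusted p = 0.223) in siCont and -2.94 ± 0.59 (adjusted p = 0.0693) in siXist clones. Trib3, a target of the stress response, differed by 2.55 ± 0.68 (adjusted p = 0.162) and 1.88 ± 0.68 (adjusted p = 0.261). In siXist against siCont clones Dnajc3, an inhibitor of PKR, differed by -0.66 ± 0.32 (adjusted p = 0.384) and Ppp1r15b, a phosphatase subunit that reverses the block of translation, by -1.01 ± 0.53 (adjusted p = 0.421).

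**Figure D5:**
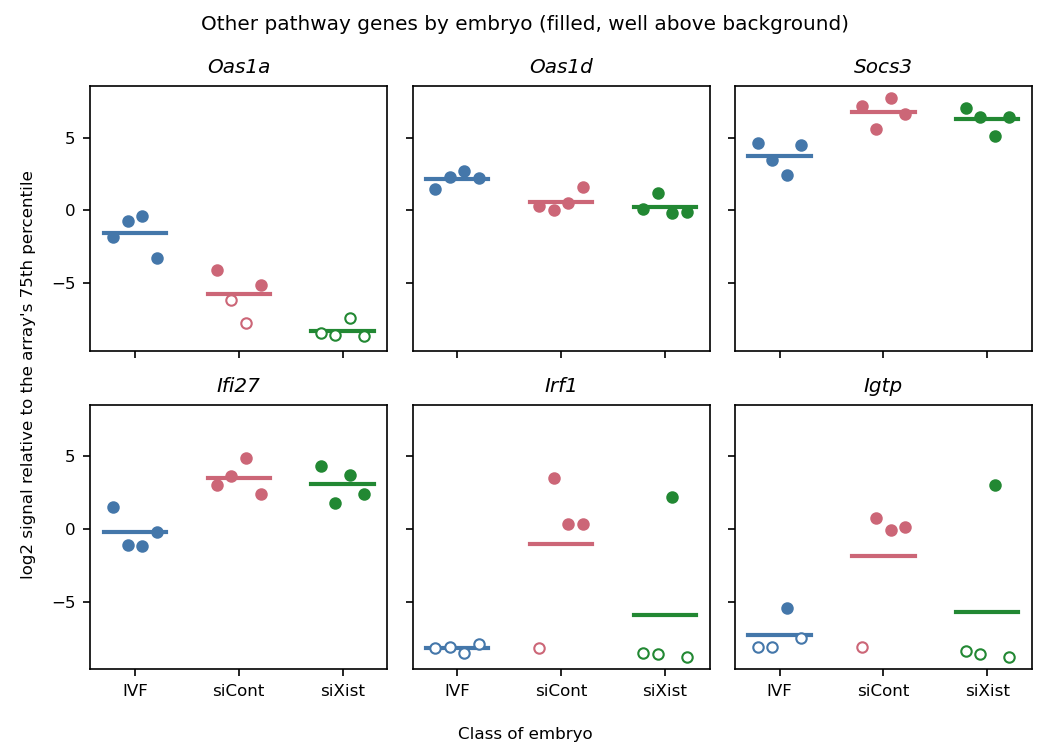
Log2 signal relative to the 75th percentile of the array (vertical axis) of the brightest probe of 6 other pathway genes in each embryo by class (horizontal axis), with filled points well above background and lines at the class means (n = 4). Oas1a is open in all 4 siXist clones, Socs3 and Ifi27 lie higher in all 8 clones than in the IVF embryos, and Irf1 and Igtp are filled together in siCont clones 2, 3 and 4 and siXist clone 3.

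The genes whose level over the 12 arrays was most like that of a member were sought for Mavs, Irf3 and Isg15, the members above background on at least 9 arrays, among 13006 named features. For Mavs they were Rpl39 (Pearson r = 0.94), Mrpl41 (0.94) and Pax7 (0.937). Rpl39 and Mrpl41 encode proteins of the cytosolic and the mitochondrial ribosome, and Pax7 was above background on 8 of 12 arrays. For Irf3 they were Tonsl (0.921), Rex1bd (0.914) and Ssbp4 (0.906), and for Isg15 Hmx2 (0.965), Crhr2 (0.941) and Nipal4 (0.92), each above background on all 12 arrays. These are the highest of many correlations over 12 embryos that share classes and slides, and are given as a description.

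Markers of other cells that could carry this RNA were read beside the members. Of 14 immune cell probes 7 were above background on no array, among them every probe of the defining genes Ptprc, Adgre1 and Lyz2. The number above background per array was 2 to 5 in IVF, 4 to 5 in siCont and 4 to 6 in siXist embryos, and the summed signal, in units of the 75th percentile, 0.172 to 0.291, 0.334 to 0.520 and 0.135 to 0.894. Of 13 cumulus cell probes 1 to 4 were above background in IVF, 3 to 6 in siCont and 3 to 5 in siXist embryos, with a summed signal of 1.99 to 4.46, 4.06 to 8.62 and 3.76 to 7.34. For 14 probes of Sertoli cell genes, the donor cell type, the numbers were 8 to 10, 8 to 9 and 7 to 12 and the summed signal 259 to 373, 252 to 643 and 188 to 347. Of 8 tested Sertoli genes Rhox5 alone was called, higher in siXist against IVF embryos. In that comparison the difference was above 0 for 2 of the 8 and below 0 for 6. Sox9 was among the latter, at -5.51 ± 1.96 (SE; limma, adjusted p = 0.254). The part of these markers in the members' values was not tested.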

How the data were processed

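Per the labels' protocols, total RNA of single embryos was amplified in successive rounds and labelled with Cy3. Per the file headers, the deposited scanner files hold spot intensity from Agilent Feature Extraction 10.5.1.1, background-subtracted and not normalised between arrays. The authors' deposited value table is in log2 units centred by probe, and its constant per array stays unknown. Probes were named through a RefSeq table for GRCm38.p6 (26888 probes, 65.3%). Levels were log2 processed signal minus the array's 75th percentile, without outlier spots.

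Probes above background on at least 3 of 4 arrays of a class were kept (24853), and the brightest stood for its gene. All 12 arrays were fitted in limma 3.58.1 (R 4.3.3), with male IVF, female IVF, siCont and siXist means, sexes weighted equally, 8 residual degrees of freedom and Benjamini-Hochberg adjustment at 0.05. Scripts were tested on simulated data. Members and lists were chosen with earlier results of these data known. Named were all members, up to 4 called genes per list and comparison, otherwise the 2 with the smallest p, and the 3 genes most like a member. Tbk1, Ticam1, Ifnar1, Ifnb1 and the other interferon genes named for detection were named after their values were seen. So were Ifit2, Ifit3, Rsad2, Cxcl10, Isg20, Psmb9, Pml, Igtp, Usp18, B2m, Rhox5, Sox9, Sox2, Cdx2 and Sall4.

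Same-numbered arrays of different classes did not vary together, so the main fit did not pair embryos by number. That does not show that the embryos were unpaired. Alternatives were other normalisations, filters and probe rules, 3 class means, only the groups compared, male IVF embryos only, a replicate block and leaving out each array. The labels call the embryos biological replicates. A gene of the lists is not reported here, and counts over the lists include it.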

Additional observations from a re-analysis of the deposited data

Results flagged for a closer look

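In 7 of 24 classes of 4 embryos with some signal, a single embryo stood far from the others by Dixon's test. Chance gives about 1 in 20 for measured values, a rate that does not apply here, since the other embryos were dim spots without a measured level and 2 of the classes are probes of the same gene in the same clones. In siCont clone 3, Ifih1 was at 0.50 (others -8.44 to -8.21) and Tlr3 at -2.32 (others -8.53 to -8.22). In siCont clone 2, the brightest Ddx58 probe was at -4.07 (others -8.01 to -7.48), a second Ddx58 probe at -3.06 (others -7.96 to -7.59) and Ifit1 at -4.14 (others -8.36 to -7.88). In siXist clone 4, the brightest Ddx58 probe was at -4.40 (others -8.72 to -8.18). In siXist clone 3, Tlr3 was at -6.14 (others -8.86 to -8.67). The embryos standing apart were above background and the others dim in each case, and no IVF embryo was among them. Single IVF embryos above background were nonetheless seen for Ddx58. By its brightest probe IVF 4 was the only one, at -1.82, brighter than both clones flagged for that probe. It was not flagged, and the dim IVF embryos lay between -8.14 and -5.76. By the second probe IVF 1 was the only IVF embryo above background, at -5.68.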

How the results depend on the processing

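No tested member passed the threshold under any of the 24 alternatives against IVF embryos or the 23 between clones. The sign turned for Isg15 in siXist minus IVF without siXist clone 3 (-0.56, the lowest value with an array left out, the highest being 0.85), and in siXist minus siCont for Mavs (0.52) and Isg15 (0.19) in the authors' table. For Ifit1 in siXist minus siCont it turned with dim values raised to the floor (-0.21) and without siCont clone 1 (-0.28), 3 (-0.12) or 4 (-0.24) or siXist clone 1 (-0.38) or 4 (-0.63), while the highest value with an array left out was 1.12. The authors' table moved the median of all features to -1.13, -0.19 and 0.93, against -0.04, -0.23 and -0.21, so Mavs and Isg15 stayed below that median in siXist minus siCont. Other pathway genes called in siCont minus IVF rose from 0 to 1 after normexp with quantile normalisation (Socs3) and in the authors' table (Eif2ak4), and ranged from 0 to 1 with an array left out (Oas1a without siCont clone 1, Cyld without siCont clone 3). In siXist minus IVF they rose from 1 to 2 without a filter (Ifi44), and with the mean of probes, 3 class means or only the groups compared (Eif2ak4 in each). They fell to 0 with the replicate block, where Oas1a missed the threshold (-6.71, adjusted p = 0.0525), and ranged from 1 to 2 with an array left out (2 without siCont clone 3, Eif2ak4). In siXist minus siCont they ranged from 0 to 1 (Cyld without siCont clone 3). All features called were 79, 110 and 2, against 13, 13 and 1 with the replicate block. The block changed no other call among the members and the other pathway genes, and Rhox5 is not given for the alternatives. All features called were 33 to 106, 34 to 127 and 8 to 56 with an array left out, and 18 and 21 against male IVF embryos. In siCont minus IVF 43 calls were higher and 36 lower, and 14 and 96 in the authors' table. The cause of these changes was not tested. Same-numbered arrays had correlations of -0.153 to 0.0642, and others -0.163 to 0.16. Dim probes have no measured level, which limits what can be said of the sensors and Irf7.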

Other observations

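Igtp, a GTPase induced by interferon gamma, was above background in the same clones as the brightest probe of Irf1, which was seen after the values were known and is given without a test. Both probes were above background in 3 of 4 siCont clones and 1 of 4 siXist clones, and passed the filter through the siCont clones alone. Igtp read 0.72, -0.06 and 0.13 in siCont clones 2, 3 and 4, and it was dim at -8.16 in siCont clone 1. In siXist clone 3 it reached 3.03. Among IVF embryos that Irf1 probe was dim in all and Igtp was above background in IVF 3 alone, at -5.45. A second Irf1 probe did not match Igtp, being above background in IVF 2, 3 and 4, siCont clone 2 and siXist clone 4. Against IVF embryos, the siCont clones differed by 5.48 ± 2.83 (SE) and the siXist clones by 1.61 ± 2.83, neither past the threshold (limma, adjusted p = 0.429 and 0.818). In siXist clone 3, Usp18, the protease that removes ISG15, was above background as well, at -0.74, and it was dim in the other 11 embryos.

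B2m, the light chain of class I antigen-presenting molecules and an interferon-responsive gene, read 1.32 ± 0.55 (SD, n = 4) in IVF, 2.80 ± 0.91 (n = 4) in siCont and 2.66 ± 0.51 (n = 4) in siXist embryos. The differences from IVF embryos were 1.48 ± 0.50 (SE) and 1.34 ± 0.50 and did not pass the threshold (limma, adjusted p = 0.254 and 0.274). A second B2m probe gave means of 1.12, 2.55 and 2.43.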
